A study of Mus musculus with 16 samples.

Results

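The question was whether loss of Etv6 acts differently on the classical dendritic cell subsets sorted as Esamhi and Esamlo from mouse spleen, and whether the expression distance between them is smaller in CKO than in WT. Of 16 RNA-seq libraries in the series, the 8 with these subset labels were compared. They form 4 groups of 2 libraries, namely Esamhi CKO, Esamhi WT, Esamlo CKO and Esamlo WT. The measure was the interaction, defined for each gene as the CKO minus WT difference in Esamhi less the same difference in Esamlo, on the log2 scale. A positive interaction means that Esamhi stands higher relative to Esamlo in CKO than in WT. CKO is the usual abbreviation of conditional knockout and is not spelled out in the labels, while the study's title and design name Etv6 as the gene missing from these dendritic cells. The labels give spleen as the tissue and no strain, age, Cre driver or treatment, and whether both libraries of a group are from different mice is not stated. All p-values thus rest on library-to-library spread, part or all of which may be technical. Genes on autosomes were reported, 13317 in number after low counts were removed.

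Etv6 is a transcription factor of the ETS family that mostly represses its targets. Classical dendritic cells of type 2 (cDC2) in the spleen are divided by ESAM, an endothelial cell adhesion molecule. The ESAM-high cells depend on Notch2 and lymphotoxin beta receptor signals, sit near the marginal zone and present antigen to CD4 T cells. The ESAM-low cells carry more transcripts shared with monocytes, among them the lysozymes and the receptors for CSF1 and CCL2.

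The 8 libraries held between 14982885 and 20709265 counts, with a count for 13571 to 15252 genes. Levels are given as CPM, a gene's count relative to the scaled total of its library, and differences as log2 fold changes from edgeR's quasi-likelihood fit with Benjamini-Hochberg adjusted p. A gene was called where that adjusted p was under 0.05. Esam itself followed the sort, with 131 and 134 CPM in Esamhi CKO and 144 and 151 CPM in Esamhi WT. In Esamlo its level was 7.99 and 10.96 CPM in CKO and 13.7 and 11.5 CPM in WT. The general cDC2 genes Sirpa, Itgax and Zbtb46 were high in all 8 libraries, with Sirpa between 1266 and 1571 CPM. The cDC1 gene Xcr1 lay between 28.9 and 51.3 CPM in Esamlo and between 9.97 and 16.6 CPM in Esamhi. The plasmacytoid gene Siglech lay between 3.73 and 6.82 CPM in Esamlo and between 0.746 and 1.52 CPM in Esamhi. Of 19 cDC1 genes tested, 13 were called lower and 1 higher in Esamhi, averaged over the genotypes. Over all 13317 genes 791 were called lower and 748 higher. The part of cDC1 cells in the subset distance was not tested.

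Etv6 transcripts were present in every library. The gene had 389.8 and 434 CPM in Esamhi CKO and 492 and 451 CPM in Esamhi WT, and 370.1 and 362 CPM in Esamlo CKO and 426 and 512 CPM in Esamlo WT. Both CKO libraries lay below both WT libraries in each subset, but neither difference passed the test, with log2 -0.19 (SE 0.10) and adjusted p = 0.812 in Esamhi and log2 -0.36 (SE 0.10) and adjusted p = 0.255 in Esamlo (edgeR). The part of the gene that was removed is not given in the sources used here, and a total over the whole gene also holds reads from exons that remain, so it does not check the genotype labels. Xist, transcribed from the inactive X chromosome, ranged from 296 to 355 CPM in the 4 CKO libraries and from 0 to 1.28 CPM in the 4 WT libraries. The Y-linked Ddx3y ranged from 0.0565 to 0.901 CPM in CKO and from 161 to 222 CPM in WT. Sex therefore coincided with genotype in these libraries, and effects of sex and genotype on autosomal genes cannot be told apart.

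Replicates were not equally close. Root mean square log2 distances between replicates were 0.573 in Esamhi CKO, 0.546 in Esamhi WT, 0.522 in Esamlo CKO and 0.778 in Esamlo WT, so the Esamlo WT libraries differed most from each other. Esamlo CKO replicate 1 held B cell transcripts, with a sum of 1394 CPM over 12 markers against 577 CPM in its replicate and 389 to 526 CPM in Esamlo WT. In Esamhi that sum was 366 to 491 CPM in CKO and 468 to 472 CPM in WT. In bulk libraries fewer cells of a type and less RNA per cell cannot be told apart.

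Esamhi and Esamlo were nearer to each other in CKO than in WT by point estimate, and the difference did not pass a test. The distance was the root mean square of the log2 CPM differences over the 13317 autosomal genes, taken for every pair of an Esamhi and an Esamlo library. The CKO pairs lay at 0.717, 0.772, 0.749 and 0.760, with a mean of 0.749. The WT pairs lay at 0.801, 0.795, 1.01 and 0.960, with a mean of 0.892. All 4 CKO pairs were below all 4 WT pairs, although the pairs share libraries and are not independent. The CKO mean was 84.0% of the WT mean, a difference of -0.143. Over the 36 ways of assigning genotype within each subset, the exact permutation p was 0.167 two-sided, and the smallest p that this design allows is 0.0556. The 2 widest WT pairs were those with Esamlo WT replicate 2. Without that library the WT mean was 0.798 and the difference -0.0490, with an exact permutation p of 0.333.

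**Figure D1:**
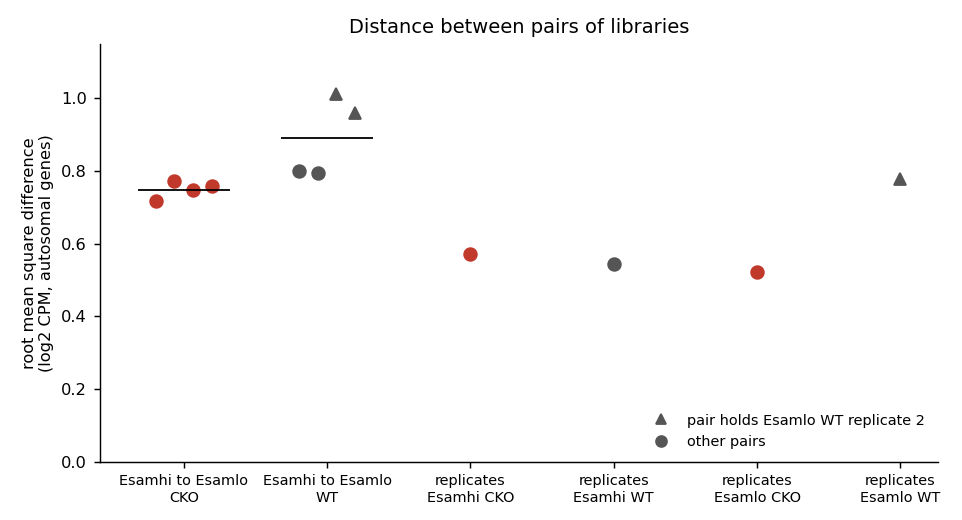
Root mean square log2 CPM difference over 13317 autosomal genes for each pair of single libraries (points), with the mean of each set of 4 pairs as a bar. CKO pairs of Esamhi and Esamlo lie between 0.717 and 0.772 and WT pairs between 0.795 and 1.01; triangles mark pairs that hold Esamlo WT replicate 2, and replicate distances are at the right.

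Replicate noise adds to every such distance, so a distance was also taken from products of differences that share no library. This noise-corrected distance was 0.512 in CKO and 0.595 in WT, so the CKO value was 86.0% of the WT value, with an exact permutation p of 0.167. The subset differences of the 2 genotypes were close in pattern, with a correlation over genes of 0.604, or 0.967 after the same correction. Genes are not independent replicates, and this correlation is a description. CKO and WT libraries of the same subset lay 0.669 to 0.702 apart in Esamhi and 0.638 to 0.875 apart in Esamlo. All 4 Esamhi values were below the smallest distance between the subsets, 0.717. In Esamlo the 2 pairs with Esamlo WT replicate 2, at 0.869 and 0.875, lay within the range of the distances between the subsets, and the other two, at 0.638 and 0.643, lay below it.

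No single autosomal gene passed the test of the interaction. The edgeR test called 0 of 13317 genes (0%), with a smallest adjusted p of 0.315, and 329 genes had an unadjusted p under 0.05, which is 2.47% of those tested. DESeq2 on the same genes called 8, with Sema4a, Hpse, Gsr, Gng12, Tmem176b and Scpep1 positive and Phgdh and Klri1 negative. Of the 329 genes, 167 had a positive and 162 a negative interaction. The gap is the Esamhi minus Esamlo log2 difference within a genotype. In 254 of the genes its size was smaller in CKO, and in 75 it was larger. Over all 13317 genes it was smaller in CKO for 7887 (59.2%). The 329 genes were chosen on the interaction itself, and replicates differed most in Esamlo WT, so the 254 and 75 carry no test. The precision of the design bears on the count of 0 calls. The 2.47% with an unadjusted p under 0.05 is a smaller share than 0.05, which is expected if no gene differed. The main edgeR fit thus gave fewer small interaction p-values than that share. Genes are not independent, and whether the fit was conservative was not itself tested. It estimated spread with the other groups of the series included. In the edgeR fit of the 8 libraries alone, 831 genes had an unadjusted p under 0.05 and 2 were called. What lowered the share in the main fit was not tested. The 0 calls are thus limited evidence that interactions are absent. In the main fit the median standard error of the interaction was 0.378 on the log2 scale. It was 0.267 for the 8748 genes with a mean of at least 3 log2 CPM. For 6139 of those 8748 genes (70.2%) the 95% interval lay within a 2-fold interaction in either direction. At lower levels the median standard error was 1.40, and 107 of 4569 genes had an interval that narrow.

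More genes passed the subset comparison in WT than in CKO. Esamhi minus Esamlo called 407 genes in CKO (3.06% of those tested), 206 higher and 201 lower. In WT it called 778 (5.84%), 368 higher and 410 lower. Of these, 334 were called in both genotypes, which is 82.1% of the CKO list and 42.9% of the WT list, and all 334 had the same sign. Averaged over the genotypes, 1539 genes were called (11.6%), 748 higher and 791 lower in Esamhi. A call in one genotype and not in the other is not a test of the difference, which is the interaction above. Leaving out 1 of the CKO libraries gave 91 to 180 calls in CKO, leaving out 1 of the WT libraries gave 299 to 490 in WT, and the averaged count was 841 to 1101 with any of the 8 left out, in fits with fewer samples. The order turned without Esamlo WT replicate 2, with 363 calls in CKO and 345 in WT, and without Esamhi WT replicate 1, with 318 in CKO and 299 in WT.

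Among the 1539 genes, the gap was smaller in CKO for 1088 (70.7%), against 7887 of all 13317 genes (59.2%). Their median gap was 0.56 in CKO and 0.72 in WT on the log2 scale. The share was 359 of the 506 genes with an average gap of at least 2-fold, and 129 of the 180 with at least 4-fold. Genes chosen on the average are free of a pull towards either genotype only where replicate spread is equal, and it was wider in Esamlo WT. When genes with an average gap of at least 1 log2 unit were chosen in the libraries numbered 1 and measured in those numbered 2, the gap was smaller in CKO for 787 of 1370 genes (57.4%), with medians of 1.17 in CKO and 1.34 in WT. With the numbers exchanged it was smaller for 997 of 1661 (60.0%), with medians of 0.88 in CKO and 1.12 in WT. Both shares are near the 59.2% over all genes. That share takes the direction and the gap from the same libraries, so it is not a like measure for them. All of these shares use the same 4 groups and carry no test.

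**Figure D2:**
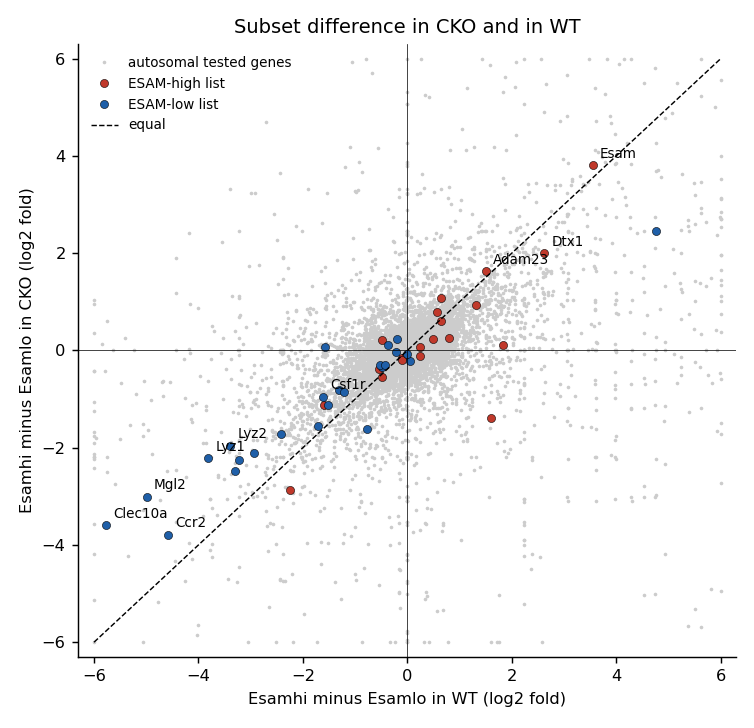
Esamhi minus Esamlo log2 fold change in CKO (vertical) and in WT (horizontal) for 13317 autosomal genes, with the ESAM-high list in red and the ESAM-low list in blue; values beyond 6 in either direction are drawn at the edge. Points above the dashed line of equality in the lower left have a smaller gap in CKO, as 21 of the 25 ESAM-low genes do.

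Among genes with a mean of at least 3 log2 CPM, the widest averaged subset gaps were present in both genotypes by point estimate. On the Esamhi side the largest averaged differences included Crispld2, a secreted cysteine-rich protein, Ryr3, a calcium release channel, Scn3a, a sodium channel subunit, and Mmp9, a matrix metalloproteinase. Crispld2 had 47.2 and 45.3 CPM in Esamhi CKO and 55.1 and 60.96 CPM in Esamhi WT, and 1.39 and 1.98 CPM in Esamlo CKO and 1.99 and 1.79 CPM in Esamlo WT. Its gap of 4.78 in CKO and 4.93 in WT left an interaction of -0.15 (SE 0.41). Ryr3 had 177 and 264 CPM in Esamhi CKO and 173 and 159 CPM in Esamhi WT, and 9.99 and 12.99 CPM in Esamlo CKO and 10.7 and 7.37 CPM in Esamlo WT, with gaps of 4.26 in CKO and 4.20 in WT. Gaps of Igsf3 were 3.40 in CKO and 3.40 in WT, and those of Scn3a were 3.42 in CKO and 3.37 in WT. For Crispld2, Ryr3, Igsf3 and Scn3a the groups of a subset nearly coincide or shift together. Mmp9 had gaps of 2.80 in CKO and 3.43 in WT, with an interaction of -0.64 (SE 0.81). On the Esamlo side, at the same level, the largest averaged differences included Ccr2, C3, Lyz1, Klrk1, Fcgr3, Rab7b, Gng12 and Cx3cr1. Some genes below that level had gaps as wide, as Clec10a with an averaged difference of -4.69. Rab7b, a small GTPase of late endosomes, had gaps of -2.83 in CKO and -2.70 in WT, and Klrk1, the activating receptor NKG2D, had -2.75 in CKO and -3.05 in WT. Fcgr3, a low-affinity IgG receptor, had -2.47 in CKO and -3.29 in WT, each called. Gaps were -2.56 in CKO and -3.63 in WT for C3, and -2.22 in CKO and -3.82 in WT for Lyz1. Gng12 had -2.09 in CKO and -3.42 in WT, and Cx3cr1 had -2.25 in CKO and -3.23 in WT. Of the genes of this side named here, Rab7b alone had the wider gap in CKO by point estimate.

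Of 20 genes listed for ESAM-high cDC2 and the Notch pathway, 5 were called higher in Esamhi in CKO and 5 in WT, and they were the same genes, Esam, Cd4, Adam23, Dtx1 and Relb. Over all 13317 genes 206 were called higher in CKO and 368 in WT. In WT, 1 further gene, Notch1, was called lower in Esamhi. The median gap of the list was 0.16 in CKO and 0.53 in WT, and the gap was smaller in CKO for 12 of the 20, against 59.2% of all genes, with a median interaction of -0.07 against -0.01 over all genes. Esam had gaps of 3.81 in CKO and 3.55 in WT and an interaction of 0.26 (SE 0.23), with a 95% interval from -0.25 to 0.78. Dtx1, a Notch target that encodes the ubiquitin ligase Deltex, had 464 and 498 CPM in Esamhi CKO and 629 and 622 CPM in Esamhi WT. In Esamlo, Dtx1 stood at 120.2 and 121 CPM in CKO and 99.3 and 105 CPM in WT. The Dtx1 values of CKO lay below WT in Esamhi and above WT in Esamlo, and the interaction of -0.62 (SE 0.52) did not pass.

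Cd4, the coreceptor carried by most ESAM-high cells, had 126 and 143 CPM in Esamhi CKO and 293 and 266 CPM in Esamhi WT. In Esamlo its level was 66.4 and 74.8 CPM in CKO and 125 and 100.2 CPM in WT. Cd4 fell in Esamhi CKO, by 1.06 on the log2 scale (adjusted p = 0.0314, edgeR). It did not pass in Esamlo, at -0.68 (adjusted p = 0.289), and the interaction was -0.38 (SE 0.29) with unadjusted p = 0.205. Relb, the NF-kappaB subunit downstream of the lymphotoxin beta receptor, had 707 and 696 CPM in Esamhi CKO and 601 and 589.6 CPM in Esamhi WT, and 395 and 415 CPM in Esamlo CKO and 425 and 374 CPM in Esamlo WT. Its gap was 0.79 in CKO and 0.58 in WT. Of the receptors themselves, Notch2 had gaps of 0.07 in CKO and 0.24 in WT, and Ltbr had -0.39 in CKO and -0.54 in WT, none of them called.

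The ESAM-low and monocyte-like list of 25 genes was nearer between the subsets in CKO by point estimate. In CKO 9 of the 25 were called lower in Esamhi, and in WT 16 were, where 201 of all 13317 genes were in CKO and 410 in WT. The median gap was -0.95 in CKO and -1.53 in WT. The gap was smaller in CKO for 21 of the 25, against 59.2% of all genes, and the median interaction was 0.47 against -0.01 over all genes. None of the 25 passed the interaction test by edgeR or DESeq2, and 8 had an unadjusted p under 0.05, against 2.47% of all genes. Like the other gene lists here, it was chosen with earlier results of these libraries known and carries no test of its own. Without Esamlo WT replicate 2 the gap of mean log2 CPM was smaller in CKO for 20 genes, without Esamlo CKO replicate 1 for 22, and without both for 22.

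Lyz2, which encodes the lysozyme of myeloid cells, had 765 and 705 CPM in Esamhi CKO and 286 and 263 CPM in Esamhi WT. In Esamlo it had 2574 and 3146 CPM in CKO and 3268 and 2512 CPM in WT. Both Esamhi CKO libraries lay above both Esamhi WT libraries, while the Esamlo groups overlapped. The CKO effect on Lyz2 was 1.42 (SE 0.31) in Esamhi (adjusted p = 0.0616, edgeR) and -0.02 (SE 0.31) in Esamlo. Its gap was -1.96 in CKO and -3.40 in WT, and the interaction was 1.44 (SE 0.44) with unadjusted p = 0.00620 and adjusted p = 1.00. Lyz1, the neighbouring copy, had 95.3 and 83.8 CPM in Esamhi CKO and 33.4 and 32.1 CPM in Esamhi WT. In Esamlo, Lyz1 had 354 and 481 CPM in CKO and 541 and 383 CPM in WT. Lyz1 gave the same pattern, with an interaction of 1.60 (SE 0.42) and unadjusted p = 0.00248. The 2 genes are near-identical copies, so the counting could have split or shared their reads, and they are not independent evidence.

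The 250 bases before the start sites of the lysozyme pair are shown because the genes gave the same pattern. They come from RefSeq on GRCm38.p6, for Lyz2 at chr10:117282273-117282522, minus strand, and for Lyz1 at chr10:117292869-117293118, minus strand. Letters in capitals mark the ETS core GGAAG or its reverse complement CTTCC, and each sequence is written 5′ to 3′ on the strand of its gene.
Lyz2: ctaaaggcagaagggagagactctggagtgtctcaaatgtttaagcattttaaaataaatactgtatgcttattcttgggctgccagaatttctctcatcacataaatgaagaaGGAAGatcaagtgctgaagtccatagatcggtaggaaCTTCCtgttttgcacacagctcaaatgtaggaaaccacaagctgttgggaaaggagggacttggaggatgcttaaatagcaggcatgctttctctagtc
Lyz1: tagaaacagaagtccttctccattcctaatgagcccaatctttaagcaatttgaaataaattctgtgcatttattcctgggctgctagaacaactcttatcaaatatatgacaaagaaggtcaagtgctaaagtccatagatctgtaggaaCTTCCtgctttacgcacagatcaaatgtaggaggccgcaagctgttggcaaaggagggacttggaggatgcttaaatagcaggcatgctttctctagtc
The Lyz2 window held 2 cores and the Lyz1 window 1, and 205 of 260 aligned positions (78.8%) were the same. Of 32851 RefSeq windows of this length, 64.1% held a core on either strand. The longer ETS consensus CCGGAAGT was in neither window and in 2.88% of all windows. A match is a description of the letters and shows no binding.

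In the receptor genes Csf1r and Ccr2 the CKO libraries lay above WT in Esamhi and below WT in Esamlo, and in Cx3cr1 they stood apart in Esamhi alone. Csf1r, the receptor for CSF1, had 397 and 366 CPM in Esamhi CKO and 271 and 258 CPM in Esamhi WT, and 730.1 and 743 CPM in Esamlo CKO and 815 and 804 CPM in Esamlo WT. Cx3cr1, the fractalkine receptor, had 32.7 and 26.03 CPM in Esamhi CKO and 14.6 and 14.3 CPM in Esamhi WT, and 146 and 134 CPM in Esamlo CKO and 148 and 123 CPM in Esamlo WT. The interactions of 0.66 (SE 0.59) for Csf1r and 0.97 (SE 0.97) for Cx3cr1 did not pass. Ccr2, the receptor for the monocyte attractant CCL2, had 11.1 and 7.55 CPM in Esamhi CKO and 7.14 and 6.90 CPM in Esamhi WT. In Esamlo, Ccr2 had 130.1 and 126 CPM in CKO and 174 and 164 CPM in WT. Its interaction was 0.80 (SE 0.25), with unadjusted p = 0.00700 (edgeR) and adjusted p = 1.00. The Ccr2 gap was -3.79 in CKO and -4.59 in WT, both called.

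In 5 lectins of the list, Clec10a, Mgl2, Clec12a, Cd209a and Cd209d, both Esamlo CKO libraries lay below both Esamlo WT libraries. Clec10a, a macrophage galactose-type lectin, had 1.49 and 1.58 CPM in Esamhi CKO and 0.746 and 0.986 CPM in Esamhi WT. In Esamlo, Clec10a had 18.1 and 19.3 CPM in CKO and 45.9 and 49.8 CPM in WT. Mgl2, its paralog, had 1.36 and 0.394 CPM in Esamhi CKO and 0.692 and 0.986 CPM in Esamhi WT, and 6.60 and 7.17 CPM in Esamlo CKO and 28.1 and 25.9 CPM in Esamlo WT. Clec12a, an inhibitory lectin, had 94.1 and 119 CPM in Esamlo CKO and 139.6 and 153 CPM in Esamlo WT. The CKO effects in Esamlo were -1.35 (SE 0.37) for Clec10a, -1.97 (SE 0.46) for Mgl2 and -0.46 (SE 0.22) for Clec12a, and none passed by edgeR. Cd209a, which encodes a mouse relative of DC-SIGN, had 184 and 172 CPM in Esamhi CKO and 265 and 261 CPM in Esamhi WT, and 302 and 339 CPM in Esamlo CKO and 579.5 and 645 CPM in Esamlo WT. Cd209d, of the same family, had 0 and 0.169 CPM in Esamhi CKO and 0.320 and 0.415 CPM in Esamhi WT, and 0.287 and 0.282 CPM in Esamlo CKO and 1.48 and 0.929 CPM in Esamlo WT. Both were lower in CKO in each subset without overlap, with Cd209a effects of -0.56 (SE 0.32) in Esamhi and -0.93 (SE 0.32) in Esamlo and Cd209d effects of -1.92 (SE 0.74) in Esamhi and -2.07 (SE 0.45) in Esamlo. Neither passed within a subset by edgeR, and Cd209d rests on few counts. Over the 21 C-type lectin receptors tested, edgeR called 0 for a CKO effect in either subset, with 4 in Esamhi and 5 in Esamlo at an unadjusted p under 0.05, against 7.44% and 7.84% of all genes in those subsets. DESeq2 called 0 in Esamhi and 2 in Esamlo. The median CKO effect of the lectins was -0.41 in Esamhi and -0.71 in Esamlo, and both Esamlo CKO libraries lay below both WT libraries for 14 of 21, against 20.9% of all genes.

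Over the whole ESAM-low list the CKO effect had a median of 0.36 in Esamhi and -0.14 in Esamlo. In Esamhi both CKO libraries lay above both WT libraries for 12 of the 25 genes, against 22.4% of all genes. In Esamlo both CKO libraries lay below both WT libraries for 11 of 25, against 20.9%. Plac8, a monocyte and plasmacytoid gene, was the one member called by edgeR for a CKO effect within a subset, and it rose in both. DESeq2 called 3 members in Esamhi and 4 in Esamlo. In the average of both subsets edgeR also called Cd209d, which fell by 1.99 (adjusted p = 0.0319). Plac8 had 575 and 514 CPM in Esamhi CKO and 241 and 299.7 CPM in Esamhi WT, and 638 and 704 CPM in Esamlo CKO and 362 and 419 CPM in Esamlo WT. The 17 members called lower in Esamhi in the averaged contrast were also set on one scale, as the excess of Esamhi CKO over Esamhi WT in percent of the Esamlo CKO level. That percentage was 40.8% for Plac8, 16.1% for Lyz2, 15.8% for Csf1r, 14.2% for Cebpb, 13.6% for Lyz1 and 10.6% for Cx3cr1. It was 1.79% for Ccr2, 0.527% for Mgl2 and -26.5% for Cd209a. The percentage was above 0 for 13 of the 17, with a median of 6.20% and a range from -99.4% to 40.8%. Its source was not tested.

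**Figure D3:**
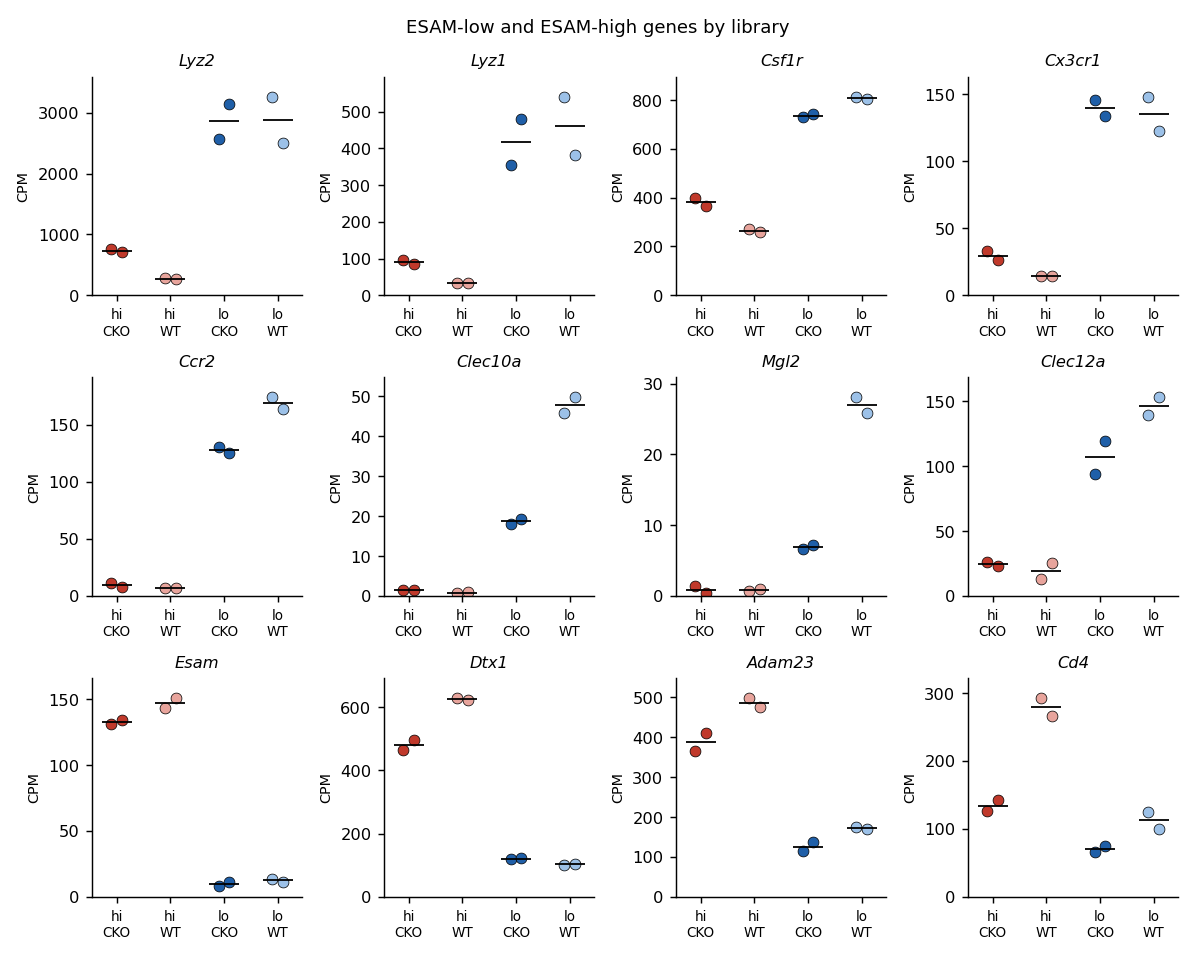
CPM in each of the 8 libraries (points) with the group mean (bar) for 8 ESAM-low genes and 4 ESAM-high genes, Esamhi CKO and WT at the left of each panel and Esamlo CKO and WT at the right. Lyz2, Lyz1, Csf1r and Cx3cr1 are higher in Esamhi CKO than in Esamhi WT, and Clec10a, Mgl2 and Clec12a are lower in Esamlo CKO than in Esamlo WT.

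Markers of other cells differed with genotype in places. Monocyte markers, 11 genes in sum, ranged from 1065 to 1158 CPM in Esamhi CKO, from 744 to 893 CPM in Esamhi WT, from 1427 to 1451 CPM in Esamlo CKO and from 1286 to 1338 CPM in Esamlo WT. Plac8 belongs to this sum and to the ESAM-low list, and its mean was 274 CPM higher in Esamhi CKO than in Esamhi WT. Most of the Esamhi difference in the sum thus lay in that gene. In Esamlo, Plac8 rose by more CPM than the sum did. F13a1, a defining monocyte gene, lay between 0.426 and 5.47 CPM in all 8 libraries. Neutrophil markers, 10 genes in sum, ranged from 46.6 to 48.1 CPM in Esamhi CKO and from 9.59 to 12.1 CPM in Esamhi WT. In Esamlo the neutrophil sum ranged from 50.9 to 51.9 CPM in CKO and from 25.1 to 30.3 CPM in WT. Macrophage markers ranged from 548 to 626 CPM in Esamhi CKO and from 471 to 764 CPM in Esamhi WT, so those groups overlapped. The part of such cells in the values of the ESAM-low list was not tested.

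The 10 positive interactions of smallest p included genes that stood much higher in Esamhi CKO than in Esamhi WT. Sema4a, a semaphorin that costimulates T cells, had 201 and 170.5 CPM in Esamhi CKO and 30.4 and 32.01 CPM in Esamhi WT. In Esamlo it had 207 and 199 CPM in CKO and 109.7 and 75.7 CPM in WT. Sema4a rose in both subsets, by 2.57 (SE 0.16) in Esamhi (adjusted p = 6.95e-06, edgeR) and by 1.13 (SE 0.15) in Esamlo (adjusted p = 0.00426). The WT subsets were 1.57 log2 units apart with Esamlo higher, and in CKO the gap was -0.13. Its interaction of 1.44 (SE 0.22) had adjusted p = 0.315 in the fit of all 16 libraries. It passed with DESeq2, without the filter on low counts and without Esamlo WT replicate 2, where adjusted p was 0.0168.

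Hpse, the enzyme heparanase that cuts heparan sulfate, had 51.3 and 61.2 CPM in Esamhi CKO and 15.7 and 18.2 CPM in Esamhi WT, and 94.2 and 92.7 CPM in Esamlo CKO and 59.7 and 57.02 CPM in Esamlo WT. Hpse rose in both subsets, by 1.73 (SE 0.13) in Esamhi and 0.68 (SE 0.12) in Esamlo (adjusted p = 1.8e-05 and 0.0255, edgeR). Its interaction was 1.05 (SE 0.18) with adjusted p = 0.375 by edgeR and 0.000522 by DESeq2, and its gap was -0.73 in CKO and -1.78 in WT. Hpgd, which inactivates prostaglandins, had 185 and 149.9 CPM in Esamhi CKO and 18.5 and 18.7 CPM in Esamhi WT. In Esamlo, Hpgd had 193 and 193 CPM in CKO and 72.5 and 78.1 CPM in WT. The Hpgd gap was -0.20 in CKO and -2.01 in WT. Its interaction of 1.81 (SE 0.45) passed in the fit of the 8 libraries alone, with adjusted p = 0.00476, and not in the fit of all 16.

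The windows before the start sites of Hpse and Hpgd are shown since both genes had a larger CKO effect in Esamhi by point estimate. Hpse lies at chr5:100719717-100719966, minus strand, and Hpgd at chr8:56294302-56294551, plus strand, with capitals and build as for the lysozymes.
Hpse: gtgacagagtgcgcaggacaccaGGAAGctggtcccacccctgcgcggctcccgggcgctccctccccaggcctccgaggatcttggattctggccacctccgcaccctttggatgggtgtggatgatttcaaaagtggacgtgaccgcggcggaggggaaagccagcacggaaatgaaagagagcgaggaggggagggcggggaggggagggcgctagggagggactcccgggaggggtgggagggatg
Hpgd: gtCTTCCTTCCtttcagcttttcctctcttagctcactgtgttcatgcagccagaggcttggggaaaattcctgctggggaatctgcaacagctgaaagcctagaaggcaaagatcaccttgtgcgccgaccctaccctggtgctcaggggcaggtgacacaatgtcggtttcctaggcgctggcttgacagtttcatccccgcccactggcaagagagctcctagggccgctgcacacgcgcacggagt
The Hpse window held 1 core and the Hpgd window 2, where 64.1% of all windows held a core. Neither held CCGGAAGT.

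In Gsr, Tmem176b, Scpep1 and Mfge8 the CKO level lay above WT in Esamhi and below WT in Esamlo, with no overlap between the genotypes. Gsr, glutathione reductase, had 163 and 169.6 CPM in Esamhi CKO and 100.5 and 116 CPM in Esamhi WT, and 228 and 263 CPM in Esamlo CKO and 304 and 327 CPM in Esamlo WT. Tmem176b, a membrane protein of immature dendritic cells, had 751 and 690.4 CPM in Esamhi CKO and 569 and 553 CPM in Esamhi WT. In Esamlo, Tmem176b had 685 and 740.2 CPM in CKO and 1003 and 966 CPM in WT. The interaction was 0.98 (SE 0.19) for Gsr and 0.83 (SE 0.18) for Tmem176b. Scpep1, a serine carboxypeptidase, had 174 and 184 CPM in Esamhi CKO and 141 and 149 CPM in Esamhi WT, and 176 and 194 CPM in Esamlo CKO and 201 and 204 CPM in Esamlo WT. Scpep1 had an interaction of 0.44 (SE 0.11), and its gap was -0.05 in CKO and -0.48 in WT. Mfge8, the bridge protein for uptake of apoptotic cells, had 20.9 and 23.2 CPM in Esamhi CKO and 14.6 and 17.8 CPM in Esamhi WT, and 14.1 and 12.4 CPM in Esamlo CKO and 22.3 and 22.97 CPM in Esamlo WT. The Mfge8 gaps were of opposite sign, 0.73 in CKO and -0.48 in WT. Gng12, a G protein subunit, had 8.27 and 5.69 CPM in Esamhi CKO and 1.97 and 2.49 CPM in Esamhi WT, and 29.7 and 29.5 CPM in Esamlo CKO and 27.4 and 20.4 CPM in Esamlo WT. It rose in Esamhi by 1.63 (SE 0.22) (adjusted p = 0.00253, edgeR), and its interaction was 1.33 (SE 0.28). Rassf1 had 0.69 (SE 0.18).

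Genes with a negative interaction stood lower in Esamhi relative to Esamlo in CKO than in WT. Phgdh, the first enzyme of serine synthesis, had 9.56 and 8.68 CPM in Esamhi CKO and 9.06 and 9.29 CPM in Esamhi WT. In Esamlo, Phgdh had 8.94 and 9.04 CPM in CKO and 3.98 and 2.99 CPM in WT. Only the Esamlo WT libraries stood low among the 8, and Phgdh rose in Esamlo CKO by 1.36 (SE 0.20) (adjusted p = 0.00775, edgeR), with an interaction of -1.37 (SE 0.28). Rcan1, an inhibitor of calcineurin, had 63.4 and 81.5 CPM in Esamhi CKO and 135 and 119 CPM in Esamhi WT, and 53.3 and 52.1 CPM in Esamlo CKO and 45.4 and 40.03 CPM in Esamlo WT. Its gap was 0.46 in CKO and 1.57 in WT, and its interaction was -1.12 (SE 0.27). Actn1, an actin crosslinker, had gaps of 1.05 in CKO and 2.04 in WT, and Nfkbid, a nuclear inhibitor of NF-kappaB, had 0.36 in CKO and 0.85 in WT. Klri1, a killer-lectin-type receptor, ran the other way, with a wider gap of -1.80 in CKO and -0.21 in WT. Klri1 had 6.92 and 5.30 CPM in Esamhi CKO and 17.05 and 16.1 CPM in Esamhi WT, and 20.99 and 21.6 CPM in Esamlo CKO and 19.7 and 18.7 CPM in Esamlo WT. Cd22, a B cell inhibitory receptor, had an interaction of -1.83 (SE 0.55), and its highest value of 492 CPM was in Esamlo CKO replicate 1, the library with the high B cell sum. Without that library the Cd22 interaction was -1.12. The remaining genes of the 20 were Gbp4, Capn15, Eepd1 and C2cd2l, with interactions of -0.76, -0.72, -0.52 and -0.72 in that order.

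**Figure D4:**
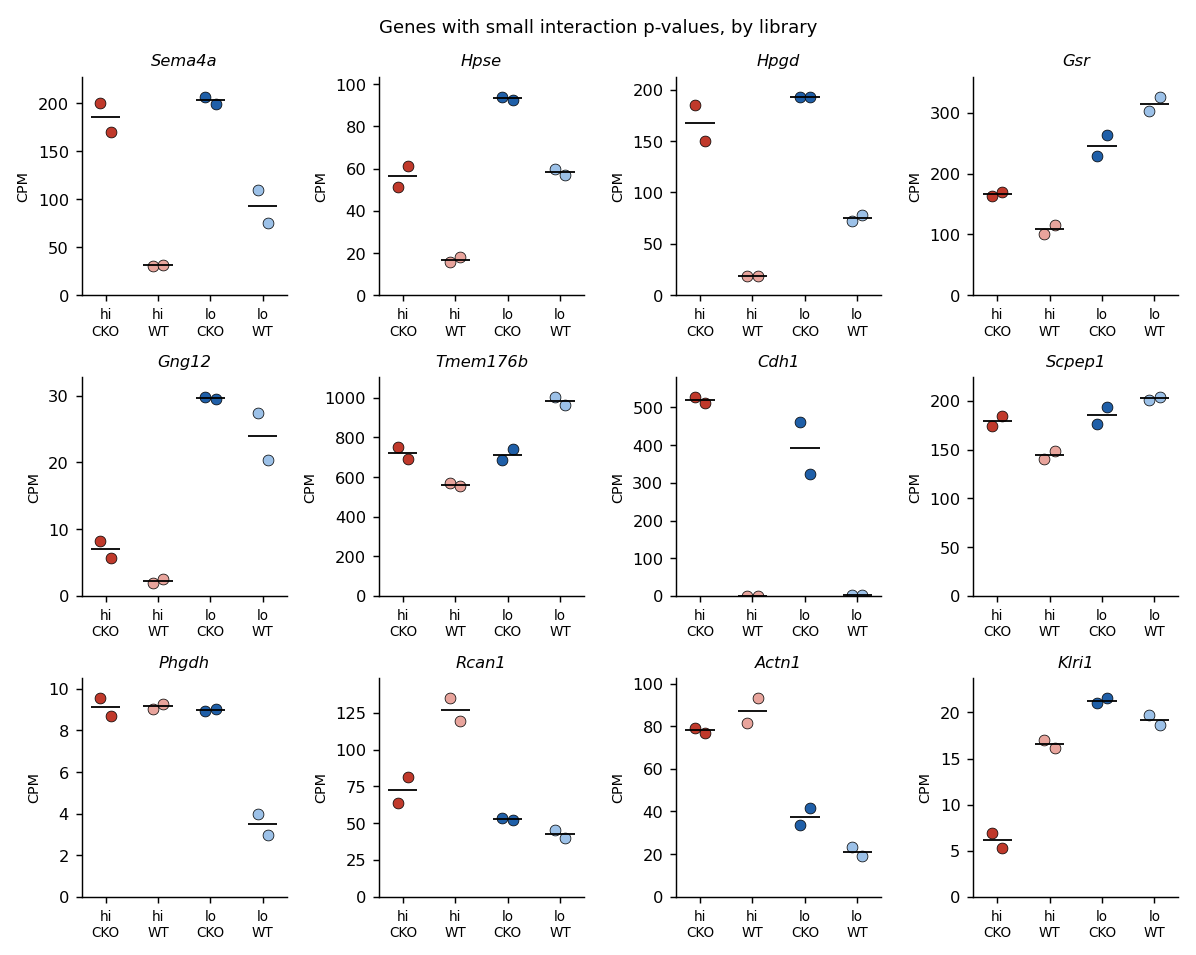
CPM in each of the 8 libraries (points) with the group mean (bar) for 12 of the 20 genes listed by smallest interaction p, none of which passed in the edgeR fit of all 16 libraries. In Sema4a, Hpse and Hpgd the Esamhi WT libraries are the lowest of the 8, and in Phgdh the Esamlo WT libraries are.

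Genes called for a CKO effect in both subsets had the same direction in both. CKO minus WT called 110 genes in Esamhi (0.826% of those tested), 87 higher and 23 lower. In Esamlo it called 68 (0.511%), 59 higher and 9 lower. Of these, 47 were called in both, 42.7% of the Esamhi list and 69.1% of the Esamlo list, and all 47 had the same sign. Averaged over both subsets 268 genes were called (2.01%), 192 higher and 76 lower. The sign was the same in both subsets for 267 of these 268, a count that choosing on the average favours. The effect was larger in Esamhi for 164 and larger in Esamlo for 104, with median sizes of 0.80 in Esamhi and 0.68 in Esamlo. An unadjusted interaction p under 0.05 (edgeR) was found for 41 of the 268 (15.3%), against 2.47% of all genes. Leaving out 1 Esamhi library gave 39 to 43 calls in Esamhi, leaving out 1 Esamlo library gave 22 to 32 in Esamlo, and the averaged count was 139 to 169.

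**Figure D5:**
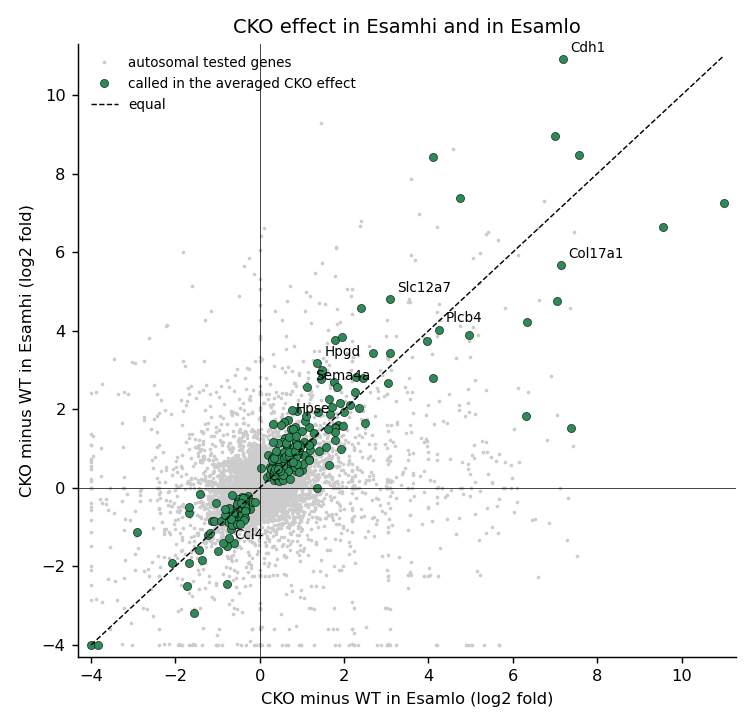
CKO minus WT log2 fold change in Esamhi (vertical) and in Esamlo (horizontal) for 13317 autosomal genes, with the 268 genes called in the average of both in green; values beyond the range of the axes are drawn at the edge. The 268 genes lie along the dashed line of equality, 164 with the larger effect in Esamhi and 104 with the larger effect in Esamlo.

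The 2 largest averaged rises in CKO, among genes with a mean of at least 3 log2 CPM, were in the cell adhesion genes Cdh1 and Col17a1. Of 26 adhesion genes tested, 5 rose in Esamhi and 6 in Esamlo, and none fell, where over all 13317 genes 87 rose in Esamhi and 59 in Esamlo. The adhesion list was chosen with earlier results of these libraries known, so its counts carry no test. Cdh1, which encodes E-cadherin, had 527 and 510.2 CPM in Esamhi CKO and 0 and 0.519 CPM in Esamhi WT, and 461 and 324 CPM in Esamlo CKO and 2.61 and 2.72 CPM in Esamlo WT. One Esamhi WT library had no count for Cdh1, so its fitted interaction of 3.71 (SE 0.80) depends on how counts near 0 are handled. Leaving out single libraries moved it between 2.74 and 8.94. Col17a1, a collagen of hemidesmosomes, had 369.7 and 391 CPM in Esamhi CKO and 6.76 and 8.20 CPM in Esamhi WT. In Esamlo, Col17a1 had 230.3 and 234 CPM in CKO and 2.44 and 0.730 CPM in WT. Cdh1 and Col17a1 rose in both subsets, and their interactions had opposite signs, with -1.48 (SE 0.55) for Col17a1. Itgax, which encodes CD11c, rose in both subsets, by 0.65 in Esamhi and 0.65 in Esamlo (adjusted p = 0.0346 and 0.0447, edgeR), with an interaction of 0.00 (SE 0.18) and a 95% interval from -0.39 to 0.39. Itgad and Itgb4 rose in each subset as well, and Icam1 rose in Esamlo by 0.55 and stood at 0.43 in Esamhi, where it did not pass.

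Other large effects were also spread over both subsets. Plcb4, a phospholipase C, had 49.6 and 65.7 CPM in Esamhi CKO and 3.46 and 3.58 CPM in Esamhi WT, and 84.1 and 78.8 CPM in Esamlo CKO and 4.09 and 4.51 CPM in Esamlo WT. Its effects of 4.03 (SE 0.18) in Esamhi and 4.24 (SE 0.18) in Esamlo gave an interaction of -0.21 (SE 0.24). Slc12a7, a potassium chloride cotransporter, had 158 and 149 CPM in Esamhi CKO and 7.24 and 3.74 CPM in Esamhi WT, and 91.7 and 79.5 CPM in Esamlo CKO and 8.81 and 11.3 CPM in Esamlo WT, with an interaction of 1.71 (SE 0.46). Cfb, complement factor B, rose by 3.42 in Esamhi and 2.68 in Esamlo, and C5ar2, a receptor for complement C5a, rose by 2.80 in Esamhi and 4.10 in Esamlo. Qpct and Fam217b rose in both subsets with interactions of 0.36 and 0.54.

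Of 24 chemokines and cytokines tested, the gap was smaller in CKO for 19, against 59.2% of all genes. This list and those that follow were chosen with earlier results of these libraries known. Their genes are not independent, and their shares carry no test. Ccl4, an attractant of T and NK cells, had 243 and 258 CPM in Esamhi CKO and 625 and 781 CPM in Esamhi WT. In Esamlo, Ccl4 had 150.4 and 183 CPM in CKO and 266 and 307 CPM in WT. Ccl4 fell in Esamhi by 1.49 (adjusted p = 0.000672, edgeR) and stood at -0.78 in Esamlo (adjusted p = 0.0662). The WT gap of 1.30 compared with 0.59 in CKO, with an interaction of -0.71 (SE 0.23) and unadjusted p = 0.00911. Ccl3, a related attractant, had 138 and 159 CPM in Esamhi CKO and 349 and 435 CPM in Esamhi WT, and 90.9 and 112 CPM in Esamlo CKO and 142 and 171 CPM in Esamlo WT, with an interaction of -0.78 (SE 0.27). Tnf had 77.8 and 80.1 CPM in Esamhi CKO and 217 and 188 CPM in Esamhi WT. In Esamlo, Tnf had 48.1 and 47.1 CPM in CKO and 47.8 and 48.3 CPM in WT. Only the Esamhi WT libraries were high in Tnf, and its interaction of -1.34 (SE 0.48) passed in the fit of the 8 libraries alone (adjusted p = 0.0130) and not in the fit of all 16. Cxcl10 rose in Esamhi by 1.17 (adjusted p = 0.0401).

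Among the 15 genes of MHC class II presentation, edgeR called 0 CKO effects in either subset, with 8 in Esamhi and 1 in Esamlo at an unadjusted p under 0.05, against 7.44% and 7.84% of all genes in those subsets. DESeq2 called 2 in Esamhi and 0 in Esamlo. The median effect was 0.20 in Esamhi and 0.06 in Esamlo, and both Esamhi CKO libraries lay above both WT libraries for 11 of 15, against 22.4% of all genes. H2-Eb2 and Cd1d1, an MHC class I-like member of the list, were called higher and Ctss lower in Esamhi in both genotypes. The gap was smaller in CKO for 13 of the 15, against 59.2% of all genes. Its median size was 0.07 in CKO and 0.24 in WT, against 0.23 and 0.29 over all genes. Of 25 maturation and costimulation genes, 8 were called higher in Esamhi in CKO and 7 in WT, where 206 of all 13317 genes were in CKO and 368 in WT, with median gaps of 0.39 in each. Ccr7, the receptor that guides dendritic cells to T cell zones, had gaps of 1.34 in CKO and 1.20 in WT, and Fscn1, the actin bundler fascin, had 1.52 in CKO and 1.56 in WT. The gap was smaller in CKO for 12 of the 25, against 59.2% of all genes.

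Of the 29 transcription factors and growth factor receptors of dendritic cells, 3 rose in Esamhi CKO and 1 in Esamlo CKO, where 87 of all 13317 genes rose in Esamhi and 59 in Esamlo. Irf8, the factor of the cDC1 lineage, had 152 and 126 CPM in Esamhi CKO and 83.1 and 76.1 CPM in Esamhi WT, and 447 and 409.8 CPM in Esamlo CKO and 331 and 287 CPM in Esamlo WT. Irf8 rose in Esamhi by 0.80 (SE 0.10) (adjusted p = 0.00149, edgeR) and stood at 0.47 (SE 0.10) in Esamlo, where it did not pass, with an interaction of 0.33 (SE 0.14). Its gap was -1.62 in CKO and -1.96 in WT. Csf2rb2, a receptor chain for IL-3, rose in both subsets, by 1.13 in Esamhi and 0.86 in Esamlo, and Nfil3 rose in Esamhi by 0.78 (adjusted p = 0.0101). Irf4, the cDC2 factor, had gaps of 0.93 in CKO and 1.20 in WT, and was called in WT.

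Among 40 type I interferon response genes, Ifi47, an interferon-inducible GTPase, rose by 0.87 in Esamhi (adjusted p = 0.0155, edgeR) and by 0.92 in Esamlo (adjusted p = 0.0111), with an interaction of -0.05 (SE 0.20). The median interaction of the interferon list was -0.27 against -0.01 over all genes. In Esamlo both CKO libraries lay above both WT libraries for 16 of the 40, against 23.2% of all genes, and in Esamhi for 8 of the 40, against 22.4%. Of 24 cell cycle genes edgeR called 0 for a CKO effect in either subset, with 10 in Esamhi and 2 in Esamlo at an unadjusted p under 0.05, against 7.44% and 7.84% of all genes in those subsets. DESeq2 called 2 in Esamhi and 1 in Esamlo. Both CKO libraries lay below both WT libraries for 23 of 24 in Esamhi, against 21.9% of all genes, and for 19 of 24 in Esamlo, against 20.9%, with median effects of -0.47 in Esamhi and -0.27 in Esamlo. The interaction of the cell cycle list had a median of -0.21, and Mki67 had 159 and 128 CPM in Esamhi CKO and 211 and 182 CPM in Esamhi WT, and 144 and 128 CPM in Esamlo CKO and 170.1 and 167 CPM in Esamlo WT.

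Split by side, both the genes higher in Esamhi and the genes higher in Esamlo had small median CKO effects towards the other subset. The 791 genes higher in Esamlo had a median CKO effect of 0.09 in Esamhi and -0.05 in Esamlo. The 748 genes higher in Esamhi had a median CKO effect of -0.03 in Esamhi and 0.06 in Esamlo. Over all 13317 genes the medians were 0 in Esamhi and 0.01 in Esamlo. Of the 791 genes, 33 were called up and 1 down in Esamhi, against 17 up and 4 down in Esamlo. Of the 748 genes, 13 were called up and 12 down in Esamhi, against 14 up and 2 down in Esamlo. Over all 13317 genes, 87 were called up and 23 down in Esamhi, and 59 up and 9 down in Esamlo.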

How the data were processed

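The authors deposited raw whole-number counts for 24116 genes in 16 libraries, and groups came from the library titles. The submitters' processing notes name bcl2fastq, Trimmomatic 0.36, Bowtie2 2.2.9 and build mm10. How reads were counted, strand use and annotation are unstated in the sources used here. Per the labels' protocols, cDNA was amplified with SMART-seq v4, without molecular identifiers. RefSeq placed 24061 genes by Entrez ID. The counts were fitted with edgeR 4.0.16 under R 4.3.3 (TMM, filterByExpr, robust quasi-likelihood, 8 groups, all 16 libraries, 8 residual degrees of freedom). P-values were adjusted over 13790 tested genes, and the 13317 autosomal ones were reported. Distances used log2 CPM with a prior count of 2. The fit was also run on simulated data with equal spread in all groups, which does not cover the wider spread of Esamlo WT. Named genes were the 10 of smallest interaction p in each direction at a mean log2 CPM of at least 2, since none passed, the 10 largest each way in both averaged contrasts at 3, and members of lists. Alternatives were DESeq2 1.42.0, other scalings, no filter, the 8 libraries alone, single libraries left out and a replicate block. Members and lists were chosen with earlier results of these data known. Results for 1 gene are not reported here.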

Additional observations from a re-analysis of the deposited data

How the results depend on the processing

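Counts of calls depended on the spread estimate. In the fit of the 8 libraries alone, calls numbered 2 for the interaction (Hpgd and Tnf), 1036 for Esamhi minus Esamlo in CKO, 1891 in WT and 2822 averaged, and 396 for CKO minus WT in Esamhi, 260 in Esamlo and 849 averaged. DESeq2 called 8, 769, 1357 and 2030, and 290, 234 and 653 in the same order. Without the filter 1 interaction, Sema4a, passed. Leaving out each library in turn gave 0 to 1 interaction calls, 91 to 363 subset calls in CKO, 299 to 656 in WT and 841 to 1101 averaged. CKO calls then numbered 39 to 95 in Esamhi, 22 to 59 in Esamlo and 139 to 169 averaged. The cause was not tested, beyond the fewer samples in those fits. The distance difference kept its sign under every alternative run and lay between -0.237 and -0.0490 with a library left out, being smallest without Esamlo WT replicate 2. The share of genes with a smaller gap in CKO lay between 59.7% and 77.5% with a library left out, and was 57.4% and 60.0% in the cross-measured choice, which was added after seeing the data. Where a fit left 1 library in a group, that library was assumed to vary like the others. For the 20 named interaction genes, 0 of 300 alternative values changed sign and 11 passed the threshold, in 9 genes. Replicate numbers were not taken to pair the libraries, with correlations of deviations between -0.062 and 0.113 over 28 pairs of groups. The 2 over 0.1 were Esamhi CKO with Esamlo CKO (0.106) and Esamhi WT with Esamlo WT (0.113), and the labels do not say what the numbers mark. With the replicate number as a block, calls numbered 0 for the interaction, 432, 813 and 1544 for the subset contrasts and 124, 76 and 298 for CKO, and the share was 70.3%. Intervals cover the spread of these libraries only.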
